A study of Mus musculus with 6 samples.

Results

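The transcripts of 10 AP-1 and immediate early stress genes were examined in regulatory T cells (Tregs), namely the Fos-family genes Fos, Fosb and Fosl2, the Jun-family genes Jun, Junb and Jund, and the early response genes Ier2, Dusp1, Btg2 and Zfp36. They were chosen by gene symbol, and all 10 were found among the 24421 genes of the count table and passed the filter on low counts, as did 11932 genes in all. The series holds 6 RNA-seq libraries of Tregs, suppressive CD4 T cells marked by Foxp3, purified from mouse spleen and lymph nodes. There were 3 Srebp2WT libraries (genotype Srebp2WT/WT-Foxp3YFPCRE+/+, replicates 1, 3 and 5) and 3 Srebp2cKO libraries (Srebp2FL/FL-Foxp3YFPCRE+/-, replicates 6, 7 and 8). All of them thus carried a Cre recombinase with yellow fluorescent protein at Foxp3, and in Srebp2cKO the gene for SREBP2, a regulator of cholesterol synthesis genes, was floxed as well. Cre dose differed with genotype, and because Foxp3 is X-linked, +/- animals can hold Tregs without an active Cre allele. No age, treatment, sort gate or handling time is given in the sources used here. The labels do not say whether each library is a separate animal, so p-values measure only how far these samples spread, which may be a technical spread.

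AP-1 is a dimeric transcription factor. A Fos-family protein pairs with a Jun-family protein, or Jun proteins pair with each other, through leucine zippers, and the dimer binds a short DNA element in enhancers and promoters. Fos, Fosb, Jun, Ier2 and related immediate early genes need no new protein synthesis to be switched on. They respond within minutes to T cell receptor signals through MAP kinases, and also to tissue dissociation, sorting and other handling. Dusp1, which dephosphorylates MAP kinases, Zfp36, which destabilises AU-rich messenger RNAs, and Btg2, an antiproliferative protein that recruits the deadenylation machinery, are induced with them and restrain the response. In Tregs, Junb and Batf are known to take part in the effector programme.

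Total counts spanned 13918321 to 17249898 per library. Srebf2, the gene for SREBP2, held 3043, 2980 and 2548 counts in Srebp2WT and 187, 197 and 183 in Srebp2cKO. Foxp3 stood between 418.5 and 465.7 CPM (counts scaled to a common library size, with TMM factors) in all 6 libraries. Among markers of other cells, Ms4a1, Lyz2, Csf1r, Ncr1, Flt3, S100a8 and S100a9 held at most 5 counts and Cd8a at most 14 in any library, while Cybb (421 to 1299 counts), Cd74 (219 to 769), Cd22 (47 to 249), Cd79b (98 to 208), Cd8b1 (99 to 137) and Eomes (46 to 105) were detected in every library. Summed B cell markers (7 genes) ranged from 56.4 to 79.5 CPM of total counts in Srebp2WT and from 25.8 to 34.5 in Srebp2cKO. Summed myeloid markers (8 genes) ranged from 50.9 to 85.0 and from 33.2 to 39.3. The myeloid sum came nearly all from Cybb, with at most 38 counts for Itgam and at most 10 for each of the others. The 2 CD8 T cell markers summed to 7.01 to 7.59 CPM in Srebp2WT and 8.70 to 10.3 in Srebp2cKO. Stroma markers (6 genes) summed to 168 to 180 and 216 to 230 CPM, nearly all from Pecam1 (2538 to 3721 counts), with at most 18 counts for each of the other 5. The part of these markers in the results was not tested. In these bulk samples, fewer cells of a type and less RNA per cell cannot be told apart. Srebp2cKO replicate 8 stood apart from all other libraries in several of the 10 genes, so the comparisons of the 10 genes are given with and without it.

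Promoters are shown first for the 5 genes that lay furthest above the other libraries of the genotype in Srebp2cKO replicate 8, namely Fosb, Fos, Jun, Junb and Dusp1. Windows of 300 bases were taken from RefSeq (GRCm38.p6), which held 9 of the 10 genes. They run 5′ to 3′ along the gene from 250 bases before to 50 after the annotated start. They are chr12:85473640-85473939 (plus strand) for Fos, chr7:19309996-19310295 (minus) for Fosb, chr4:95052173-95052472 (minus) for Jun, chr8:84978699-84978998 (minus) for Junb and chr17:26508423-26508722 (minus) for Dusp1. Capitals mark, in either orientation (CGTCA is TGACG on the other strand), the cyclic AMP response element (CRE) core TGACG in Fos, Fosb, Junb and Dusp1, the full CRE TGACGTCA in Dusp1, which contains the core, and the TGACATCA element in Jun.
Fos: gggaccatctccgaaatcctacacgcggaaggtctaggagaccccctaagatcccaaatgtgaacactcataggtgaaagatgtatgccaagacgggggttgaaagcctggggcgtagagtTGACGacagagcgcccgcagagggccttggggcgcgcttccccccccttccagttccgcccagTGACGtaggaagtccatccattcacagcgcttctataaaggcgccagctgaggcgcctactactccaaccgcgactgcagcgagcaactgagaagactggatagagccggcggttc
Fosb: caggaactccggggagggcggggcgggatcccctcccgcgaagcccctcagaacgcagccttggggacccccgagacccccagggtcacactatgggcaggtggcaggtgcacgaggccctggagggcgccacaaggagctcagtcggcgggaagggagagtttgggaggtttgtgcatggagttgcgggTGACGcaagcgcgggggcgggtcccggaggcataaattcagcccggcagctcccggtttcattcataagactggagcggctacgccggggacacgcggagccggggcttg
Jun: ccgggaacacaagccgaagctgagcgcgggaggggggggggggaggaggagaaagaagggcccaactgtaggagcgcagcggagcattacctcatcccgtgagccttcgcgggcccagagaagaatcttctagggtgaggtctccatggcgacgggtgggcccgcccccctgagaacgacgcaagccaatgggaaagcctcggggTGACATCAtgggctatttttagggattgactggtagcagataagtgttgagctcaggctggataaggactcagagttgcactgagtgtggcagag
Junb: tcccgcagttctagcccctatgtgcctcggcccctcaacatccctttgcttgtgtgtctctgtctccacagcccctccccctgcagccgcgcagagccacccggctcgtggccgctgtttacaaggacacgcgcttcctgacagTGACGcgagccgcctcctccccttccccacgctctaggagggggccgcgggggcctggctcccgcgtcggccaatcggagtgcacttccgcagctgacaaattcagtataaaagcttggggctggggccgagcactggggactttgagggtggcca
Dusp1: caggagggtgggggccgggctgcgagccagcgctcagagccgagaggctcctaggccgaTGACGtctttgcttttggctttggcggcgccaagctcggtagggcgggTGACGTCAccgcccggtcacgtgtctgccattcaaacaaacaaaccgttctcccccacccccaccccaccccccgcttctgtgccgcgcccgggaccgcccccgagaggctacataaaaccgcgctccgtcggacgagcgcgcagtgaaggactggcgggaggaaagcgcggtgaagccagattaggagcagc
In Fos the CRE core lay 66 and 129 bases upstream of the start, in Fosb 60 bases and in Junb 106 bases upstream. Dusp1 held the full CRE 143 bases upstream and another core 191 bases upstream, and Jun held its element 45 bases upstream. Searched on both strands, the core occurred in 5 of 9 windows (Fos, Fosb, Junb, Dusp1 and Btg2) and in 20.8% of all 32851 RefSeq windows of this length. The full CRE occurred in Dusp1 and Btg2 and in 1.79% of all windows, and TGACATCA in Jun alone and in 3.62%. The CArG box, the site of serum response factor, was found 58 bases upstream in Zfp36 and in 1.63% of all windows. The AP-1 site TGANTCA was in 0 of the 9 windows, against 7.81% of all. The Jund window (chr8:70697489-70697788, plus strand) ends before the Jund locus given below (70698949 to 70700616). It may thus not be the promoter of the transcript counted. Distances above are from the RefSeq start. This start is the 5′ end of the locus given below for Fos and Jun, but not for Fosb, Junb, Dusp1 and Zfp36. Distances in these may differ for the transcript counted. These are matches of letters within the windows only, and their part in the transcript levels was not tested.

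Per kilobase of transcript, Jund, Junb and Btg2 were the most abundant of the genes and Fosb and Fosl2 the least. In Srebp2WT the level of Jund was 139 ± 4.68 CPM per kb (mean ± SD, n = 3 here and below). Junb followed at 105.0 ± 0.819 and Btg2 at 101 ± 14.3, which differ from each other by less than their spread. Dusp1 (56.3 ± 7.34), Ier2 (54.7 ± 0.920) and Zfp36 (53.2 ± 5.11) lay together below them. The ranges of Jun (13.8 ± 8.26) and Fos (7.23 ± 4.80) overlapped, but Jun was above Fos within every Srebp2WT library. Fosb (2.57 ± 2.01) and Fosl2 (2.24 ± 0.350) also overlapped. Jund and Junb made up most of the AP-1 subunit transcripts in every library. The Fos family made up 2.92%, 3.37% and 6.93% of the summed level per kb of the 6 subunits in Srebp2WT replicates 1, 3 and 5, and 4.74% and 7.0% in Srebp2cKO replicates 6 and 7. In Srebp2cKO replicate 8 it made up 19.96%. Jun itself made up 2.87% to 8.83% of the Jun family in Srebp2WT, 5.82% and 10.5% in Srebp2cKO replicates 6 and 7, and 17.2% in replicate 8. The sum of the 6 subunits was 262, 267 and 281 CPM per kb in Srebp2WT. It was 195 and 177 in Srebp2cKO replicates 6 and 7, below every Srebp2WT library, and 410.5 in replicate 8, above every one.

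**Figure D1:**
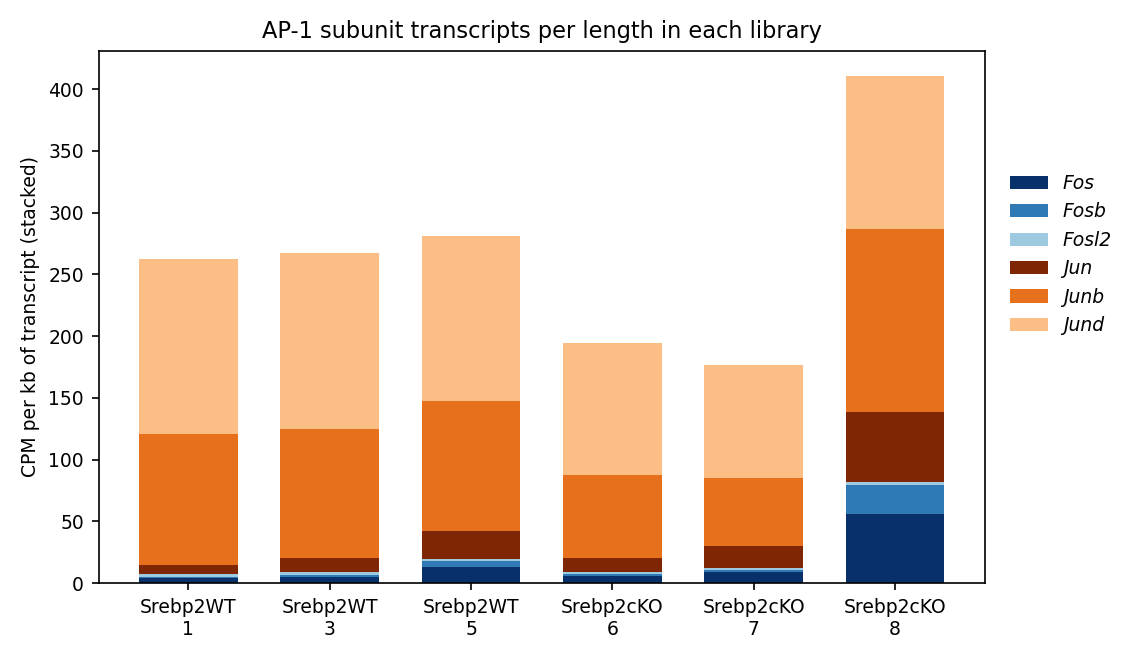
Stacked bars give the level of each AP-1 subunit transcript, in CPM per kb of transcript, in each of the 6 libraries (1 bar a library). Jund and Junb fill most of each bar, the bars of Srebp2cKO replicates 6 and 7 are the lowest (195 and 177), and that of replicate 8 is the highest (410.5), with a larger part from Fos, Fosb and Jun.

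Fos and Fosb, whose products dimerise with Jun proteins, were higher on average in Srebp2cKO, but through 1 library. Fos, at chromosome 12 from 85473890 to 85477273 (GRCm38), stood at 8.39, 10.5 and 26.9 CPM in Srebp2WT and at 12.3, 18.8 and 118 CPM in Srebp2cKO. Only Srebp2cKO replicate 8 lay above the Srebp2WT range, and the other Srebp2cKO libraries lay within it. The log2 fold change of Fos was 1.73 (95% interval 0.09 to 3.37, SE 0.74, adjusted p = 0.154 in edgeR), and without replicate 8 it was 0.05 (-0.88 to 0.97, adjusted p = 0.958). Fosb, at chromosome 7 from 19302696 to 19310051, stood at 5.07, 5.6 and 18.5 CPM in Srebp2WT and at 5.87, 6.90 and 89.3 CPM in Srebp2cKO. The groups overlapped in the same way, with replicate 5 the highest of Srebp2WT and replicate 8 far above all others. For Fosb it was 1.84 (interval -0.19 to 3.86, SE 0.91, adjusted p = 0.207), and without replicate 8 its sign turned, at -0.59 (-1.69 to 0.50, adjusted p = 0.485). Fosl2 (Fra-2), at chromosome 5 from 32135801 to 32157842, showed none of this spread, at 15.2, 16.7 and 12.2 CPM in Srebp2WT and 11.9, 10.6 and 14.8 CPM in Srebp2cKO. Its groups overlapped, and the log2 fold change was -0.24 (interval -0.60 to 0.12, SE 0.16, adjusted p = 0.358), and -0.38 without replicate 8 (-0.77 to 0.00, adjusted p = 0.219).

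The 3 Jun-family genes differed from one another. Jun, at chromosome 4 from 95049034 to 95052222, followed Fos and Fosb, at 23.3, 35.2 and 73.7 CPM in Srebp2WT and 34.4, 55.3 and 180.0 CPM in Srebp2cKO. Replicate 8 was again the only Srebp2cKO library above the Srebp2WT range. The log2 fold change of Jun was 1.04 (interval -0.18 to 2.26, SE 0.55, adjusted p = 0.235 in edgeR), and 0.04 without replicate 8 (-0.82 to 0.90, adjusted p = 0.965).

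Junb, at chromosome 8 from 84974484 to 84978718, was almost the same in the Srebp2WT libraries, at 192, 189 and 189 CPM, and spread widely in Srebp2cKO, at 122, 99.9 and 269 CPM. Replicates 6 and 7 lay below every Srebp2WT library and replicate 8 above every one, so the groups overlapped. Over all libraries its log2 fold change was -0.22 (interval -0.85 to 0.42, SE 0.29, adjusted p = 0.641 in edgeR). Without replicate 8, Junb was lower in the remaining Srebp2cKO libraries by a log2 fold change of -0.78 (interval -1.01 to -0.55, adjusted p = 0.00397). Prdx2, which overlaps Junb by 351 bases on the other strand, held 666 to 848 counts against 1549 to 4609 for Junb.

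Jund, at chromosome 8 from 70698949 to 70700616, was the member whose genotypes did not overlap, at 236, 238 and 223 CPM in Srebp2WT and 179, 153 and 206 CPM in Srebp2cKO. Of all tested genes, 15.5% were separated in this direction. The log2 fold change of Jund was -0.37 (interval -0.60 to -0.14, SE 0.10, adjusted p = 0.0553 in edgeR), just outside the threshold of 0.05, and -0.48 without replicate 8 (-0.70 to -0.26, adjusted p = 0.0296). In DESeq2 Jund passed with all libraries (adjusted p = 0.0111).

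**Figure D2:**
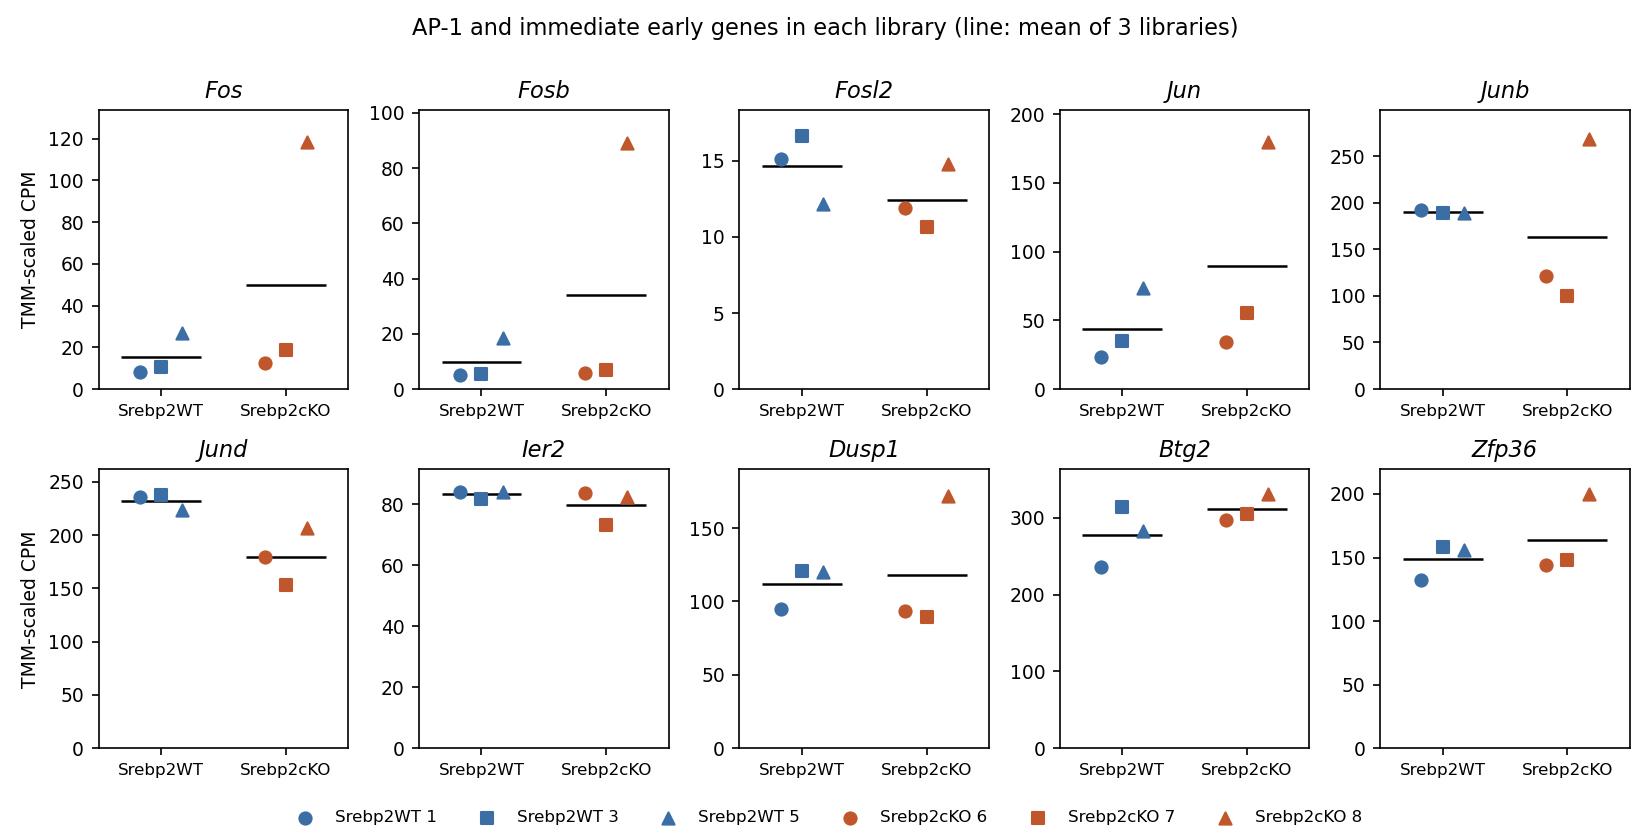
Each panel gives the TMM-scaled CPM of 1 gene in the 6 libraries (points, with 1 colour per genotype and 1 symbol per replicate) and the mean of each genotype (lines), on linear axes from 0. Srebp2cKO replicate 8 is far above the rest for Fos (118), Fosb (89.3) and Jun (180.0), and Srebp2WT replicate 5 is the highest of its genotype for the same genes.

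Ier2, an early response gene whose locus lies 311631 bases from Junb on chromosome 8 (84661331 to 84662852), was the steadiest of the 10. It stood at 84.0, 81.6 and 84.0 CPM in Srebp2WT and 83.7, 73.2 and 82.4 CPM in Srebp2cKO. Replicate 8 was not high in Ier2, and the log2 fold change was -0.06 (interval -0.23 to 0.11, adjusted p = 0.640 in edgeR), and -0.08 without it (adjusted p = 0.620). Among the genes that restrain the response, Dusp1 (chromosome 17, 26505590 to 26562128) stood at 95.1, 121 and 120 CPM in Srebp2WT and at 93.4, 89.5 and 172 CPM in Srebp2cKO. Replicates 6 and 7 lay below and replicate 8 above all Srebp2WT libraries, as for Junb. The log2 fold change of Dusp1 was 0.08 (interval -0.40 to 0.56, edgeR adjusted p = 0.831), and -0.29 without replicate 8 (-0.55 to -0.03, adjusted p = 0.180). Zfp36 (chromosome 7, 28376784 to 28380253) stood at 132, 158 and 156 CPM in Srebp2WT and at 144, 148 and 199.7 CPM in Srebp2cKO. Only replicate 8 left the Srebp2WT range (log2 fold change 0.14, interval -0.14 to 0.42, adjusted p = 0.477, and -0.02 without replicate 8, adjusted p = 0.903). Btg2 (chromosome 1, 134075170 to 134079120) stood at 236, 314 and 283 CPM in Srebp2WT and at 298, 305 and 331 CPM in Srebp2cKO. The genotypes overlapped (log2 fold change 0.17, interval -0.06 to 0.39, edgeR adjusted p = 0.301, and 0.12 without replicate 8, adjusted p = 0.564).

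Over the whole set, 0 of 10 genes passed at a false discovery rate of 0.05 in edgeR with all 6 libraries, where 6.61% of the 11932 tested genes passed. At an unadjusted p under 0.05 there were 2 (Fos and Jund), against 3471 of all tested genes. DESeq2 called 1, Jund (11.8% of all genes called), as did total-count scaling (6.32%) and the fit without a filter (7.39%). The members called were 0 in limma-voom (6.55%), with RLE scaling (6.55%) and with GC correction (5.82%). The median log2 fold change of the 10 was 0.11, with 6 positive and 4 negative, against 0.00 over all tested genes. Without Srebp2cKO replicate 8, 2 of 10 were lower (Junb and Jund), where 2.83% of all genes were lower, and the median was -0.19. That library was singled out for its high values in several of these genes, so leaving it out favours lower calls among them. In DESeq2, limma-voom, RLE scaling and total-count scaling the same exclusion also gave 2 lower genes, Junb and Jund (4.51%, 2.17%, 2.82% and 3.18% of all genes lower). Leaving out any other library called 0 of the 10, where the calls were 1.39%, 1.53% and 8.97% of all genes without Srebp2WT replicates 1, 3 and 5 and 12.3% and 2.44% without Srebp2cKO replicates 6 and 7.

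**Figure D3:**
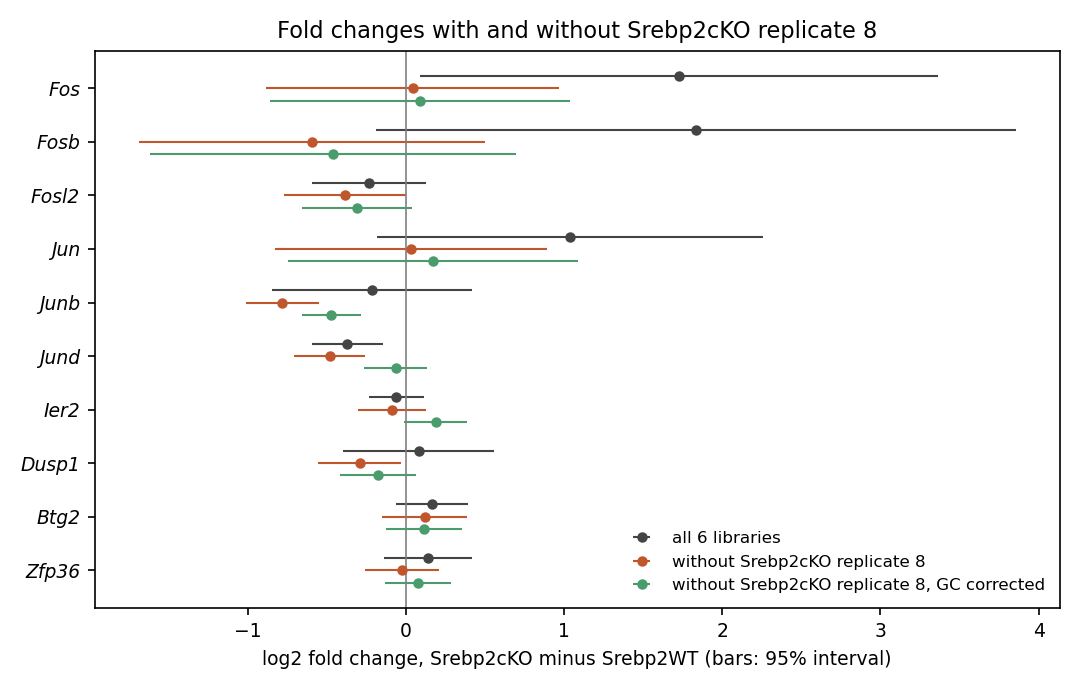
Points give the log2 fold change (Srebp2cKO minus Srebp2WT) of each gene and bars the 95% interval, with all 6 libraries (grey), without Srebp2cKO replicate 8 (orange) and without it after GC correction (green). Fos, Fosb and Jun move from 1.73, 1.84 and 1.04 to 0.05, -0.59 and 0.04 without that library, Junb moves to -0.78, and Jund is near 0 in the GC-corrected fit.

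Removing a GC trend changed the fold change of Jund and, in part, that of Junb, and fold changes of all genes followed transcript GC content in these libraries. The transcripts of Jund (67.1% GC), Junb (62.6%) and Ier2 (60.9%) are in the decile of tested genes with the highest GC content, in which the median log2 fold change was -0.27. Transcripts of the other members range from 49.7% (Btg2) to 56.0% GC (Fosb). The GC trend differed within each genotype. Its slope (log2 per 10 points of GC) ran from 0.0185 (replicate 5) to 0.171 (replicate 3) for Srebp2WT. For Srebp2cKO it ran from -0.235 (replicate 7) to 0.0134 (replicate 6). Jund stood at 223 CPM in Srebp2WT replicate 5 against 179 CPM in Srebp2cKO replicate 6, whose slopes were close. Whether GC accounts for the lower Jund was not tested. With a GC trend removed from each library, the log2 fold change of Jund was 0.02 (edgeR adjusted p = 0.934), and -0.06 without replicate 8 (interval -0.26 to 0.14, adjusted p = 0.743). Junb without replicate 8 kept its call after the correction, at -0.47 (interval -0.66 to -0.29, adjusted p = 0.0131), where 3.38% of all genes were called lower. Ier2 had a log2 fold change of 0.21 in the corrected fit (adjusted p = 0.122). These GC-rich genes have another feature in common: Jund, Junb and Ier2, and also Jun, have a single exon in GENCODE M21, while the others have 2 to 4.

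The deviation of Srebp2cKO replicate 8 was measured against the mean of replicates 6 and 7, as a difference of log2(CPM + 0.5). All 10 members were above 0 there, with a median of 0.68, against 50.3% of all tested genes and a median of 0.00. Replicate 8 was singled out for its high values in several of these genes. The values of members beside all genes here therefore describe that library and are no test of the set. Fosb was 13.1-fold higher and ranked first of 11932 genes, Fos 7.54-fold (rank 4), Jun 4.09-fold (rank 6) and Junb 2.43-fold (rank 30). These 4 were at least 2-fold above, as were 78 genes in all (0.654%). Dusp1 followed at 1.87-fold, Zfp36 at 1.37, Fosl2 at 1.30, Jund at 1.24, Btg2 at 1.10 and Ier2 at 1.05. Srebp2WT replicate 5 showed a smaller deviation of the same genes from replicates 1 and 3, with Fosb at 3.25-fold, Fos at 2.77-fold and Jun at 2.54-fold. The other members lay between 0.773-fold (Fosl2) and 1.12-fold (Dusp1) there, and 0.226% of all genes were at least 2-fold above. In both libraries 5 genes were at least 2-fold above, which is 6.41% of the genes above in Srebp2cKO replicate 8 and 18.5% of those above in Srebp2WT replicate 5. They were Fos, Fosb, Jun, Klf4 and H2-Q10, the last of a family of near-identical genes and so uncertain. Srebp2WT replicate 5 was likewise singled out for its high Fos, Fosb and Jun. The genes shared by both libraries are therefore no independent repeat of the pattern.

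**Figure D4:**
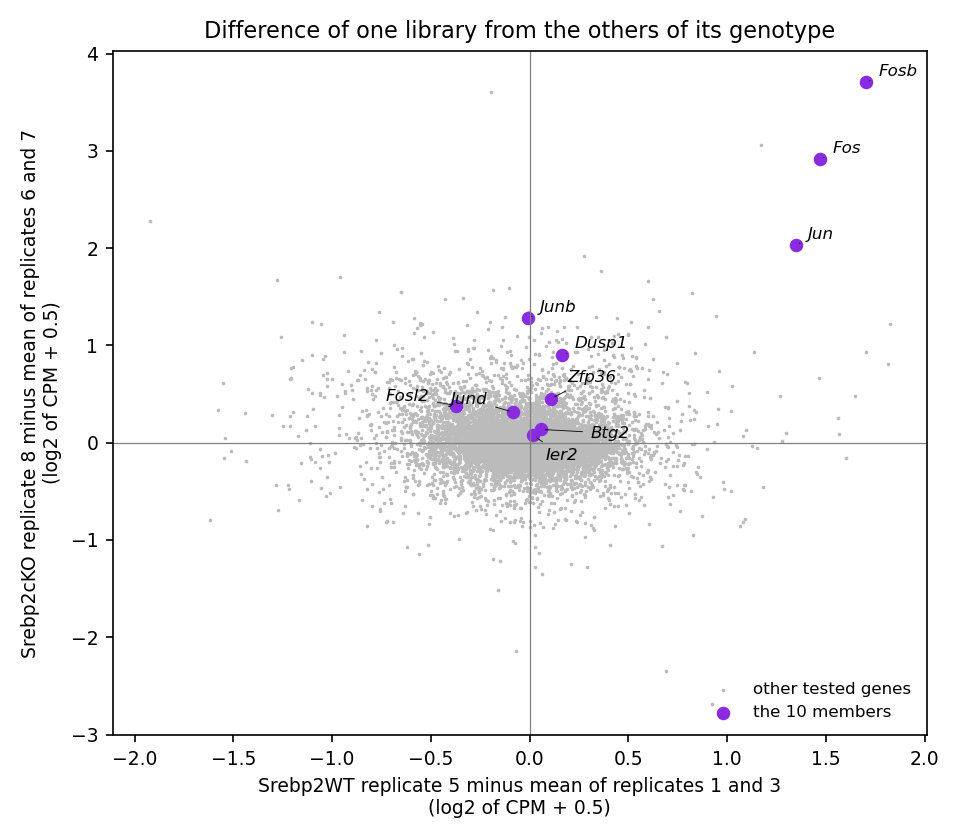
Each point is a tested gene, placed by how far Srebp2WT replicate 5 lies from the mean of replicates 1 and 3 (horizontal axis) and Srebp2cKO replicate 8 from the mean of replicates 6 and 7 (vertical axis), both as differences of log2(CPM + 0.5). Fosb (1.70 and 3.71), Fos (1.47 and 2.91) and Jun (1.35 and 2.03) lie at the upper right, while Ier2, Btg2 and Jund lie near the centre. Both libraries were singled out for high values of Fosb, Fos and Jun.

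Other cell type markers in the libraries that stood apart were as follows. In Srebp2cKO replicate 8 summed B cell markers were 34.5 CPM and myeloid markers, nearly all Cybb, 39.3 CPM. Both sums were above the other Srebp2cKO libraries (25.8 to 28.9 and 33.2 to 33.4) and below every Srebp2WT library. In Srebp2WT replicate 5 they were 56.8 and 50.9, within or below the values of replicates 1 and 3 (56.4 to 79.5 and 53.5 to 85.0). Erythroid and platelet markers (5 genes) summed to 0.58 CPM in Srebp2cKO replicate 8 and to 0 to 0.193 in the other libraries, with Pf4 and Ppbp at 0 counts and the haemoglobin genes Hba-a1 and Hbb-bs at most at 2 and 8. The neutrophil genes S100a8 and S100a9 had 0 counts in all libraries. Replicate 8 was also the deepest library. The part of these values, of handling and of the mouse in the pattern was not tested.

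The genes whose profile over the 6 libraries lay nearest to the mean profile of the 10 members were Rgs2, Ifng, Sik1, 1700056E22Rik and Dmd. Likeness was the root mean square distance of log2(CPM + 0.5) centred on each gene, over 6 libraries. Rgs2, a regulator of G protein signalling, was nearest (0.11), at 21.2, 26.3 and 33.9 CPM in Srebp2WT and 22.2, 27.3 and 48.8 CPM in Srebp2cKO. Sik1, a salt-inducible kinase (0.17), stood at 64.8, 63.9 and 69.5 CPM and at 61.9, 59.6 and 113 CPM. Both had their highest value in Srebp2cKO replicate 8, as the mean profile itself did (0.92), so the way they were picked fixed this. The members lay between 0.18 (Dusp1) and 0.99 (Fosb) from that mean profile, each further than Rgs2. Ifng (0.17), 1700056E22Rik (0.18) and Dmd (0.19) held 27 to 121 counts per library, so their profiles rest on few counts.

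Other immediate early genes showed the high level of replicate 8 in part. Of 36 tested, 28 were above the mean of Srebp2cKO replicates 6 and 7 and 4 were at least 2-fold above (11.1%, against 0.654% of all genes), namely Klf4, Ppp1r15a, Plk2 and Nr4a2, named after their values were seen. Klf4, a zinc finger factor, stood at 1.00, 0.901 and 2.77 CPM in Srebp2WT and 1.25, 1.61 and 15.5 CPM in Srebp2cKO. Ppp1r15a (Gadd34), which restores translation after stress, stood at 28.4, 38.3 and 50.2 CPM in Srebp2WT and 33.1, 38.2 and 113 CPM in Srebp2cKO. Both were highest in replicate 8, by which they were picked, and, within Srebp2WT, in replicate 5, as Fos was. Plk2 was also highest of Srebp2WT in replicate 5 (1.315, 2.318 and 2.571 CPM in replicates 1, 3 and 5). Nr4a2 was lowest there (6.199, 5.987 and 5.479 CPM).

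A different group of early response genes passed the test between genotypes. Of the 36 tested, 3 rose and 1 fell in edgeR (median log2 fold change -0.05), where 283 of all 11932 genes rose and 506 fell (6.61% called). Klf2, a factor of quiescent and recirculating T cells, rose from 218 ± 25.5 to 301 ± 10.9 CPM, a log2 fold change of 0.46 (SE 0.09, adjusted p = 0.0203). Cd69, which retains lymphocytes in tissue, rose by a log2 fold change of 0.53 (adjusted p = 0.0240) and Rgs1, which dampens chemokine signals, by 0.65 (adjusted p = 0.0249). Nfil3, a bZIP repressor, fell from 13.8 ± 3.21 to 7.64 ± 1.11 CPM, a log2 fold change of -0.84 (SE 0.19, adjusted p = 0.0310). With GC correction all 4 passed, with log2 fold changes of 0.76 for Klf2, 0.34 for Cd69, 0.35 for Rgs1 and -0.73 for Nfil3. Without replicate 8 the log2 fold changes of Cd69 and Rgs1 were 0.48 and 0.64 and no longer passed (adjusted p = 0.0694 and 0.0641), while Klf2 and Nfil3 still passed and Plk3, a stress-responsive kinase, named after its values were seen, also passed at a log2 fold change of -0.79 (adjusted p = 0.0127). Of the 4 called with all libraries, 0 kept the call without Srebp2WT replicate 1 or Srebp2WT replicate 3 (adjusted p between 0.0534 and 0.127), with log2 fold changes of 0.37 and 0.52 for Klf2, 0.44 and 0.49 for Cd69, 0.64 and 0.58 for Rgs1 and -0.82 and -0.68 for Nfil3. Without Srebp2cKO replicate 7 Klf2 kept it (adjusted p = 0.0489) and Cd69, Rgs1 and Nfil3 did not (0.0545, 0.0617 and 0.0855, at log2 fold changes of 0.52, 0.52 and -0.80).

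Among 9 tested AP-1 partners, Batf, a bZIP protein that pairs with Jun proteins at sites shared with Irf4, fell from 40.0 ± 5.52 to 25.5 ± 4.20 CPM and 0 rose (median of the list 0.11, 6.61% of all genes called). Its libraries did not overlap, at 45.7, 39.5 and 34.7 CPM in Srebp2WT and 21.5, 25.2 and 29.9 CPM in Srebp2cKO. The log2 fold change of Batf was -0.64 (adjusted p = 0.0257 in edgeR, SE 0.14). Without replicate 8 it was -0.77 (adjusted p = 0.0194). The call was lost without Srebp2WT replicate 1, Srebp2WT replicate 3 or Srebp2cKO replicate 7 (adjusted p = 0.125, 0.0933 and 0.0674) and with GC correction (0.0715), at log2 fold changes of -0.53, -0.65, -0.64 and -0.47. Of 22 tested MAP kinase and serum response genes, Map2k3, an activator of p38, fell from 32.6 ± 0.559 to 21.4 ± 1.65 CPM and 0 rose (median -0.02, against the same 6.61%). Its log2 fold change was -0.60 (adjusted p = 0.00743 in edgeR, SE 0.10), and it passed in all 12 alternative fits (-0.66 without replicate 8).

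Of 15 tested phosphatases and RNA decay relatives of Dusp1, Zfp36 and Btg2, 0 passed in edgeR and limma-voom and 4 were higher in DESeq2, which called 11.8% of all genes (626 higher). At an unadjusted p under 0.05 there were 5 in edgeR (median 0.08), against 3471 of all 11932 tested genes. The smallest p-values were those of Dusp10, a phosphatase of p38 and JNK (log2 fold change 0.54, edgeR adjusted p = 0.0669, and 0.35 without replicate 8, adjusted p = 0.172), and Tob1, an antiproliferative relative of Btg2 (0.55, adjusted p = 0.0699, and 0.55 without it, adjusted p = 0.138). Of 16 tested heat shock genes, 0 passed in edgeR, DESeq2 and limma-voom (median 0.20). At an unadjusted p under 0.05 in edgeR there were 3, against the same 3471 of all 11932 tested genes. The smallest p-values were those of Hspa9 (0.24, edgeR adjusted p = 0.106) and Hspa4 (0.25, adjusted p = 0.148), both chaperones, and without replicate 8 these were 0.24 and 0.25 (adjusted p = 0.220 and 0.271). In replicate 8, 9 of 16 heat shock genes were above the mean of replicates 6 and 7, with a median of 0.01, and 2 (12.5%, against 0.654% of all genes) were at least 2-fold above. Hspa1a and Hspa1b, near-identical copies named after their values were seen, were these 2. They stood at 3.67 and 10.9 CPM in replicate 8 and at most 0.881 and 3.60 CPM in replicates 6 and 7. In Srebp2WT Hspa1a stood at 0.501, 1.35 and 1.15 CPM and Hspa1b at 3.76, 7.21 and 4.53 CPM. Hspa1a held only 6 to 63 counts per library.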

How the data were processed

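The authors deposited raw counts per gene symbol, 1 column for each of 6 libraries, matched to samples by title. Libraries were ribosomal RNA depleted (KAPA HyperPrep, RiboErase), per the labels' protocols. HISAT2 2.2.1, Cell Ranger and mm10 are named in the submitters' processing notes without their roles. Neither counting tool, annotation nor strand setting is given in the sources used here. In GENCODE M21 (GRCm38), Jun, Jund and Zfp36 overlap antisense transcripts and Junb and Dusp1 overlap genes on the other strand (Prdx2 by 351 bases, Ergic1 by 640), so their counts can include reads of these.

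The 10 members and the 5 other gene lists were chosen with earlier results of these data known. Counts were filtered with filterByExpr (11932 genes kept), scaled by TMM and fitted in edgeR 4.0.16 (R 4.3.3) with its quasi-likelihood test for Srebp2cKO minus Srebp2WT without covariates, with Benjamini-Hochberg adjustment over all tested genes and a false discovery rate of 0.05. The fit was tested on simulated counts with a common dispersion of 0.0112 for all genes. These counts held no GC trend and no library that stood apart, so the fit was not tested for such features. SE is the log2 fold change divided by the square root of F. Length, GC and exon number are those of the longest coding transcript. Libraries of a genotype differed beyond sampling noise (chi-square divided by its degrees of freedom, 7.01 to 37.0). The highest value was that of Srebp2cKO replicates 6 and 7, the libraries against which replicate 8 was set. Replicate 8 differed from them by 13.1 and 18.1, so over all genes it was not the library furthest apart.

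Genes named beside the members, Srebf2 and Foxp3 were up to 4 called genes of each list by p (or the 2 with the smallest p) and the 5 genes nearest in profile. The alternatives were DESeq2 1.42.0, limma-voom (limma 3.58.1), RLE scaling, total-count scaling, no filter, a GC correction (loess, span 0.3, for 11459 genes with GC values) and leaving out each library. Combinations with leaving out Srebp2cKO replicate 8 were added after seeing the data.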

Additional observations from a re-analysis of the deposited data

How the results depend on the processing

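No paired analysis was possible because the genotypes share no replicate numbers. Having 3 libraries a genotype and counts as low as 80 (Fosb) limits the precision. Of all genes, 789 were called (283 higher, 506 lower), against 1404 in DESeq2, 1205 without a filter and 754 with total-count scaling (184 higher, 570 lower). Leaving out 1 library gave 167 to 1487. Without replicates 1 and 3 of Srebp2WT the counts were 167 and 184, and without replicates 6, 7 and 8 of Srebp2cKO 1487, 296 and 439.

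Of the 10 members, 0 were called, against 1 (Jund, lower) with total-count scaling, DESeq2 or no filter, and 0 to 2 when 1 library was left out. Without Srebp2cKO replicate 8 the count was 2 with DESeq2, limma-voom, RLE and total-count scaling, and 1 (Junb) with GC correction. Among AP-1 partners 1 was called, against 2 with DESeq2 and with no filter and 0 to 1 with 1 library left out. Among other immediate early genes 4 were called, against 10 with DESeq2, 9 with no filter, 7 with GC correction and 0 to 8 with 1 library left out. Among phosphatases and RNA decay genes 0 were called, against 4, 2 and 1 in these settings and 0 to 3 with 1 library left out. Counts were 1 to 2 for MAP kinase genes and 0 to 2 for heat shock genes with 1 library left out.

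Several log2 fold changes turned sign. With 1 library left out, Fosb ranged from -0.59 to 2.69, Junb from -0.78 to 0.037, Dusp1 from -0.29 to 0.24 and Zfp36 from -0.025 to 0.23, turning sign without Srebp2cKO replicate 8 (Junb without Srebp2cKO replicate 7). Dusp1 was also -0.02 without Srebp2WT replicate 1. With replicate 8 left out, Fosb was -0.46 with GC correction, -0.60 in DESeq2, -0.32 in limma-voom, -0.59 with RLE and -0.63 with total-count scaling. Dusp1 was -0.18, -0.29, -0.28, -0.29 and -0.33 in the same order. Zfp36 was -0.021, -0.020, -0.021 and -0.063 in the last 4 of these, and Jun -0.0012 with total-count scaling. Junb was 0.093 with GC correction. In the same fit Jund was 0.019, Ier2 0.21 (0.19 without replicate 8) and Foxp3 0.055. The cause was not tested. DESeq2 gave no adjusted p for Fosb with all libraries. Fos, Fosl2 and Btg2 kept their sign in all 17 alternative fits and were called in none.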
